A study of Mus musculus with 4 samples.

Results

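The peaks described here are those assigned to genes of G protein-coupled receptors in a comparison of chromatin accessibility between Rnf20-deficient and control endothelial cells of the mouse retina. They were chosen by gene symbol alone, with a pattern that takes receptor families such as Adgr, Adora, Adra, Cxcr, F2r, Gpr, Lpar and P2ry and leaves out the S1pr genes. The pattern found 83 peaks at 61 genes among 6891 peaks at 4992 gene names in the authors' deposited table. Of these, 81 peaks lie at 60 receptor genes, and the other 2 are named for Agtrap, which encodes a protein that binds the angiotensin receptor and is not itself a receptor. Counts over the 83 peaks include both Agtrap peaks, which had negative folds.

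Open chromatin was read by ATAC-seq, a method that lets a transposase insert sequencing adapters where DNA is accessible. The cells came from retinas at postnatal day 7 and were captured with magnetic beads against CD31, an endothelial surface protein. The mice are given as C57BL/6 with the transgene Tg(Pdgfb-icre/ERT2) and the Rnf20 allele tm1a(EUCOMM)Wtsi, which both groups carry as p/p, and every pup is described as having received 75 µg of 4-hydroxytamoxifen on each of postnatal days 1 to 4, controls included. The knockout genotype is written Pdgf{beta}CreERT2pos Rnf20p/p and the control genotype Pdgf{beta}CreERT2neg Rnf20p/p. The Cre recombinase is driven by Pdgfb sequences, so that deletion is aimed at cells in which they are active, which in the young retina are chiefly endothelial. Of 4 libraries, 1 control and 1 knockout have labels that agree, while in the other 2 the title and the genotype field contradict each other and no group was assigned. The authors' deposited table holds a single mean for each group, without library values, and the sources used here do not say which libraries entered it. No SD, no leave-one-out value and no depth can therefore stand beside the levels below, and the knockout and control columns are used as the authors named them.

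RNF20 attaches ubiquitin to histone H2B, a mark of transcribed genes. G protein-coupled receptors thread repeatedly through the plasma membrane, and on binding a ligand they activate heterotrimeric G proteins, which raise or lower cyclic AMP, release calcium or act on the cytoskeleton. Kinases and arrestins then silence the receptor. In blood vessels such receptors read chemokines, apelin, adrenomedullin, endothelin, lysophospholipids, thrombin, nucleotides and adenosine, and through them steer sprouting, permeability and tone. The name a peak carries per the authors' deposited table is that of a nearby transcription start site (TSS) and is not evidence that the peak regulates that gene.

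Receptor promoters that lay under a listed peak are shown first, because there the assignment of peak to gene is closest. Of the 9 promoter peaks at receptor genes, those of Adora2a, F2rl1 and Gprc5b had no window at the peak in RefSeq's promoter table (GRCm38.p6, the build also called mm10). The Htr7 peak covered only 2 of the 250 bases before the start site. The other 5 peaks covered at least 125 of the 250 bases before theirs. The lines give those 250 bases, 5′ to 3′ on the gene's strand, with capitals marking the motifs GGGCGG (GC box), CAGGAAG and CCGGAAG (ETS), TGANTCA (AP-1), TGACG (cAMP response element core), ACAAAG and ACAATG (SOX) and TGGGAA (RBPJ), each on either strand.
Lpar3 (chr3:146220711-146220960, plus strand): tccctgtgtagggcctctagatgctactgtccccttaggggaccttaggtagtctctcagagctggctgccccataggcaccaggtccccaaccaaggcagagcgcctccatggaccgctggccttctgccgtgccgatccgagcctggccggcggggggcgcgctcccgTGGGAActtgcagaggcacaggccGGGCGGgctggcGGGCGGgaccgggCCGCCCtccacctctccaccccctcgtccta
Gpr85 (chr6:13839943-13840192, minus strand): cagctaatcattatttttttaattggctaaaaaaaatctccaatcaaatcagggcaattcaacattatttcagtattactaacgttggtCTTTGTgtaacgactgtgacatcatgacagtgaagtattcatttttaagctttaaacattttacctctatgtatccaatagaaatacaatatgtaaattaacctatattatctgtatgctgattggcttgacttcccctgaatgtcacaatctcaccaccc
Adgrg6 (chr10:14545037-14545286, minus strand): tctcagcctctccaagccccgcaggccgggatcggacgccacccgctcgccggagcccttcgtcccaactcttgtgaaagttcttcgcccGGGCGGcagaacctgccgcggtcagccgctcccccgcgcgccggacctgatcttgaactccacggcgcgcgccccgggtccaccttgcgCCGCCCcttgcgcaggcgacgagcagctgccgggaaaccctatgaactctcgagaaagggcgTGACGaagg
Gpr35 (chr1:92972869-92973118, plus strand): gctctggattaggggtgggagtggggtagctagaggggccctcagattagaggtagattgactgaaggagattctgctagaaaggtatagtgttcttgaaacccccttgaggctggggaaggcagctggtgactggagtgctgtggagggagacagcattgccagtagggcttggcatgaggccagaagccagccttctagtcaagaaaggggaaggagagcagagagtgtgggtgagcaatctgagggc
Mc1r (chr8:123406832-123407081, plus strand): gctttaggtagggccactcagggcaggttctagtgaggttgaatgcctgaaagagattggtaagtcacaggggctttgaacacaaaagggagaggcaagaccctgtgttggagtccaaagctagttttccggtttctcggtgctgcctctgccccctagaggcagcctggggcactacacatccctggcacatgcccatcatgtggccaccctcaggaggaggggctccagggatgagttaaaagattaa

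The peaks over the first 3 promoters had positive folds and those over the last 2 negative folds, none of them past the threshold. GC content was 69.6% at Lpar3 and at Adgrg6, 55.2% at Gpr35, 54.4% at Mc1r and 32.0% at Gpr85, against a median of 52.4% over 32851 promoters. GC boxes were found at Lpar3 (3 matches) and Adgrg6 (2 matches), and 32.7% of all promoters hold at least 1. The Lpar3 window also held 1 RBPJ match, which 21.6% of promoters have, and the Adgrg6 window 1 cAMP response element core, which 17.8% have. Gpr85 held 1 ACAAAG match, found in 16.5% of promoters. Gpr35 and Mc1r held no capital motif, and their windows held 0 and 2 CG dinucleotides. No ETS or AP-1 match was found in these 5 windows, although 10.8% of all promoters hold CAGGAAG, 6.91% CCGGAAG and 6.75% TGANTCA. Of the 5, Adgrg6, Gpr35 and Mc1r held the E box CANNTG, which is not capitalised and occurs in 66.2% of promoters.

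The difference between knockout and control passed the threshold at 5 receptor peaks, 2 higher and 3 lower in knockout. The higher ones were named for Adora1 and Gpr132, and the lower ones for Adra1a, Sstr5 and Gpr142. The threshold is a false discovery rate (FDR) under 0.05 in the authors' deposited table, where 3.02% of all listed peaks pass it, 1.29% as higher and 1.73% as lower. The 5 make up 6.02% of the 83 peaks. That 3.02% also stands beside each called count in the groups and lists below, which hold too few peaks to read a difference. All listed peaks have an unadjusted p of at most 0.0499, so the table holds no receptor peak that stayed level.

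Adora1 encodes an inhibitory adenosine receptor. Its peak lay in an intron (chromosome 1, 134230480 to 134230656), 4288 bases from the TSS, with a knockout level of 3.76 log2 units and a control level listed at 0 (p = 4.72e-05, FDR 0.0332 per the authors' deposited table). Gpr132 encodes a receptor for lysolipids and protons known from immune cells. The Gpr132 peak (chromosome 12, 112864221 to 112864373) had a knockout level of 3.71 and a control level listed at 0 (p = 2.06e-05, FDR 0.0263 per the authors' deposited table). It is annotated as intergenic, yet it lies inside the RefSeq bounds of Gpr132. In both, the control level is the lowest value of the log2 scale in the table, so the distance between the levels depends on that floor and is not read as a fold. These were the only receptor peaks at the lowest control level, and 0 stood at the lowest knockout level of 0.13.

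Adra1a encodes an adrenergic receptor that contracts smooth muscle through calcium release. The Adra1a peak lay in its last intron (chromosome 14, 66727016 to 66727368), 91941 bases from the TSS, at a knockout level of 1.56 against 4.29 in control (log2 fold -2.73, p = 1.25e-05, FDR 0.0214 per the authors' deposited table). Sstr5 encodes an inhibitory somatostatin receptor. The peak named for it (chromosome 17, 25500987 to 25501191) stood at 0.89 in knockout and 3.67 in control (log2 fold -2.77, p = 3.56e-05, FDR 0.0299 per the authors' deposited table). Gpr142 encodes a receptor for tryptophan known from pancreatic islets. An intergenic peak 11642 bases from the Gpr142 TSS (chromosome 11, 114810400 to 114810731) stood at 2.89 and 4.86 (log2 fold -1.97, p = 4.56e-05, FDR 0.0332 per the authors' deposited table). Each of the 5 genes had 1 listed peak.

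Listed peaks near the called ones gave a mixed picture. Within 100 kb of the Sstr5 peak lay 2 others, both lower in level in knockout, at -1.87 near Gm33727 (FDR 0.302) and -1.57 near Sox8 (FDR 0.174) per the authors' deposited table. Around Gpr142 there were 3, all with negative folds, from -0.81 at Btbd17 to -1.65 at Dnaic2 per the authors' deposited table. The Adora1 and Gpr132 peaks each had 1 neighbour with a positive and 1 with a negative fold. The Gpr132 neighbours were named for Clba1 (0.78, FDR 0.402) and for Jag2, a Notch ligand gene (-0.62, FDR 0.431 per the authors' deposited table). The 1 neighbour of the Adra1a peak, in Dpysl2, had a fold of 1.34 (FDR 0.439 per the authors' deposited table), opposite to it.

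**Figure D1:**
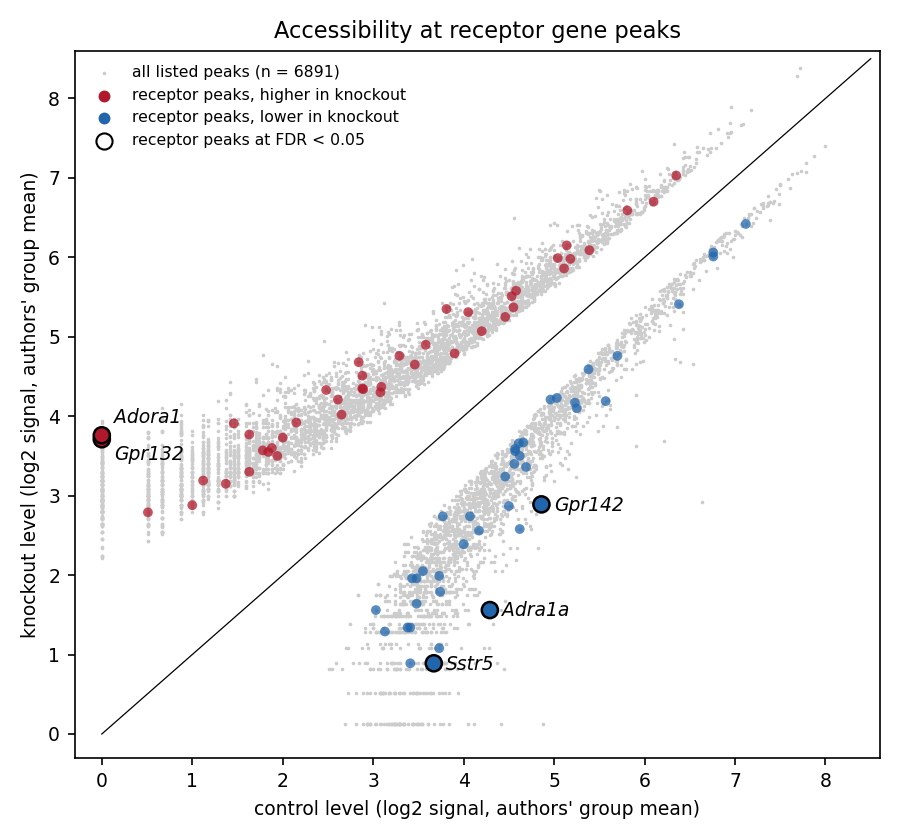
Knockout level against control level (both log2 signal, the authors' group means) for all 6891 listed peaks in grey and the 83 receptor gene peaks in colour, with the 5 at FDR < 0.05 outlined and named. Adora1 and Gpr132 sit at a control level of 0, and the empty band along the diagonal holds the peaks that the table does not list.

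Over all 83 peaks, 43 had a positive and 40 a negative fold, which is 51.8% positive, beside 62.1% of all listed peaks. The 95% Wilson interval of that 51.8%, 41.2% to 62.2%, covers counting error only and takes each peak as independent. Without Agtrap the counts were 43 and 38 (53.1%). The median log2 fold was 0.69 (binomial interval -0.95 to 0.95), beside 0.93 over all listed peaks. No listed fold lies between -0.59 and 0.59, so a median can move far with few peaks. At FDR < 0.2, which 20.4% of all listed peaks reach, there were 20 of the 83 peaks (24.1%), with counts of 7 positive and 13 negative (35.0% positive), beside 58.9% of the 1405 such peaks in the whole table. The remaining 63 peaks had FDR from 0.2 upwards. The median mean signal was 3.92 log2 units at receptor peaks and 3.74 in the whole table, and the median width 304 and 270 bases.

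The share of positive folds varied with where the receptor peaks lay. Of 41 intergenic receptor peaks 28 had positive folds (68.3%, beside 75.1% of all intergenic peaks), and of 28 intron peaks 10 did (35.7%, beside 55.5%). Promoter peaks were 4 positive and 7 negative with the Agtrap pair included (36.4%) and 4 and 5 at receptor genes alone (44.4%), beside 36.4% of all 415 promoter peaks. By position in RefSeq, 26 of the 83 peaks lay inside the gene they are named for, 11 inside another protein-coding gene and 46 outside such genes. Inside the named gene 8 were positive and 18 negative (30.8%), or 8 and 17 without Agtrap (32.0%), beside 49.1% of all listed peaks inside their named gene. Outside protein-coding genes 29 were positive and 17 negative (63.0%, beside 73.5%). Over 50 kb from the TSS, 13 of 25 receptor peaks were positive (52.0%), beside 75.4% of 2120. Within 50 kb, 30 of 58 were positive (51.7%), beside 56.2% of 4766. These are descriptions of the listed peaks, and no difference between the receptor peaks and the rest was tested.

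**Figure D2:**
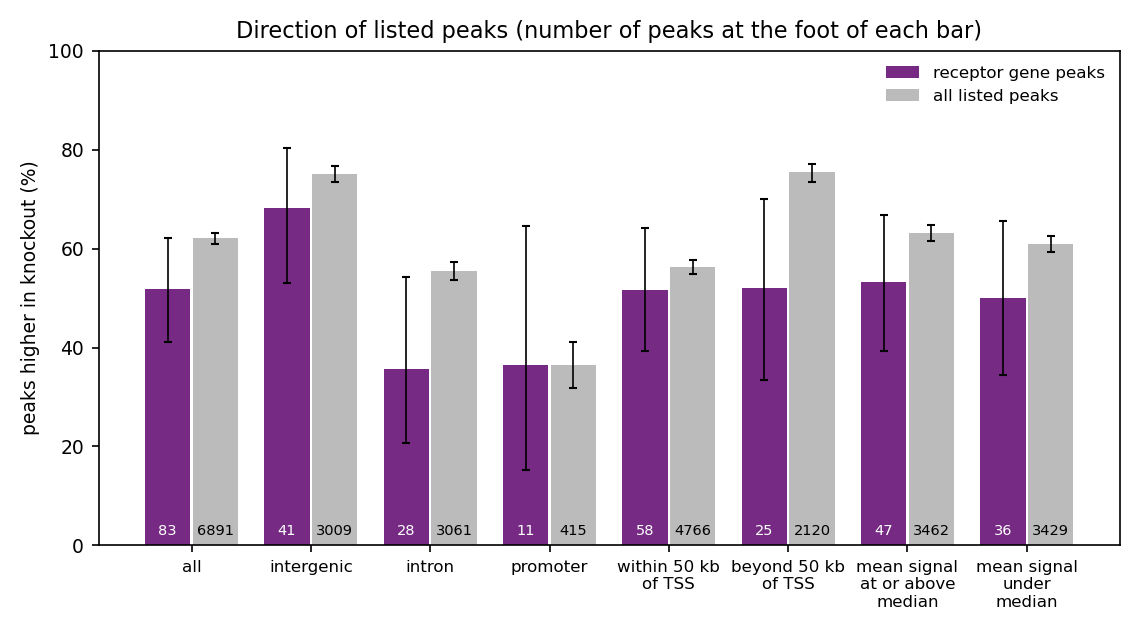
Share of listed peaks with a higher level in knockout (%), for receptor gene peaks and for all listed peaks, by annotation class, distance to the TSS and mean signal. Error bars are 95% Wilson intervals for counting error, with each peak taken as independent. The numbers at the foot are peaks, and beyond 50 kb the bars stand at 52.0% and 75.4%.

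Adhesion receptors were the largest named family after the Gpr genes, with 19 peaks at 10 genes. Of these peaks 9 had positive and 10 negative folds, and 0 were called, beside 3.02% of all listed peaks. These receptors have long extracellular parts that bind matrix or neighbouring cells. Adgrl4 and Adgrf5, both known for strong expression in endothelium, had only negative folds. The Adgrl4 peaks, both in its second intron, stood at 1.79 in knockout and 3.74 in control (-1.95, FDR 0.212) and at 3.66 and 4.61 (-0.95, FDR 0.492) per the authors' deposited table. The Adgrf5 intron peaks stood at 1.34 and 3.38 (-2.05, FDR 0.175) and at 6.06 and 6.76 (-0.69, FDR 0.394) per the authors' deposited table. So the knockout level was the lower one at all 4 peaks of this pair of genes, and none passed the threshold. Of the 26 receptor gene peaks inside their named gene, 18 had negative folds, as did 1326 of 2607 such peaks in the whole table.

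Adgrl2, a latrophilin gene, had 4 peaks, 2 in each direction. They ran from -0.99 in its first intron (FDR 0.479) to 1.87 at an intergenic site (FDR 0.512) per the authors' deposited table. Its relative Adgrl1 had an intron peak at -1.33 (FDR 0.161) and an intergenic one at 0.60 (FDR 0.487) per the authors' deposited table. The smallest FDR of the adhesion group belonged to Adgrl3, at -2.52 (FDR 0.0746 per the authors' deposited table). That peak was 893072 bases from the Adgrl3 TSS, the farthest of all receptor peaks. Adgra3 and Adgrd1 also had peaks in both directions, at 1.64 (FDR 0.22) and -1.47 (FDR 0.498) for Adgra3 per the authors' deposited table. For Adgrd1 they were 1.80 (FDR 0.26) and -1.22 (FDR 0.33) per the authors' deposited table. Adgrg6, which Schwann cells need for myelination, had 2 positive folds, 0.87 at the promoter shown above (FDR 0.536) and 1.37 at 153590 bases from the TSS (FDR 0.423 per the authors' deposited table).

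**Figure D3:**
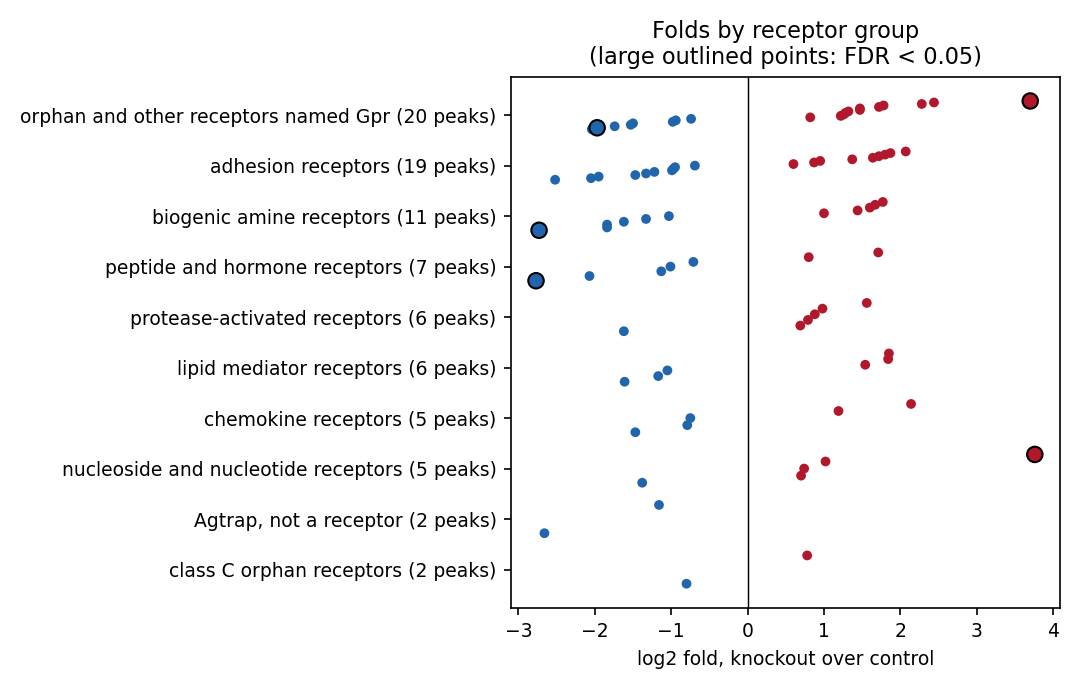
Log2 fold of knockout over control for each of the 83 peaks by receptor group, per the authors' deposited table, with peaks at FDR < 0.05 drawn large and outlined (the right-most 2, Gpr132 and Adora1, against a control level at the table's lowest value, 0). The adhesion and amine groups spread to both sides, while 5 of 6 peaks of protease-activated receptor genes are positive. Groups follow gene symbols, so the class C group holds only genes named Gprc.

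Receptors for biogenic amines, which read adrenaline, serotonin and histamine, had 11 peaks at 9 genes, 5 positive and 6 negative, with the Adra1a peak as the only call. Adra2a, an inhibitory receptor gene, had 2 negative folds, -1.62 at 431801 bases from the TSS (FDR 0.153) and -1.03 in the 3' untranslated region (FDR 0.489 per the authors' deposited table). The serotonin receptor genes Htr7 (promoter, -1.84, FDR 0.353) and Htr5a (intergenic, 1.44, FDR 0.251) differed in sign per the authors' deposited table.

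Peptide and hormone receptor genes had 7 peaks at 6 genes, 2 positive and 5 negative, with Sstr5 called. Calcrl encodes the receptor that, with a partner protein of the RAMP family, binds adrenomedullin. Its intergenic peak stood at 1.34 in knockout and 3.41 in control (-2.07, FDR 0.179), and its intron peak at 3.50 and 4.62 (-1.13, FDR 0.358) per the authors' deposited table. Aplnr, the apelin receptor gene of growing vessels, had a strong intergenic peak 27472 bases from its TSS at 6.42 and 7.12 (-0.71, FDR 0.371 per the authors' deposited table). The endothelin receptor gene Ednrb had 1 peak at 3.55 and 1.84 (1.71, FDR 0.393 per the authors' deposited table). Melanocortin receptor genes gave -1.01 at the Mc1r promoter shown above (FDR 0.466) and 0.80 near Mc4r (FDR 0.297) per the authors' deposited table.

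Both peaks of Agtrap, which promotes internalisation of the angiotensin receptor, lay at its promoter and had negative folds. They were 127 bases apart, at 1.08 in knockout and 3.73 in control (-2.66, FDR 0.0579) and at 4.10 and 5.25 (-1.16, FDR 0.44) per the authors' deposited table.

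Lipid mediator receptor genes had 6 peaks at 5 genes, 3 in each direction and 0 called. Lysophosphatidic acid receptors act on the cytoskeleton and on cell contacts. The Lpar3 promoter peak stood at 5.35 in knockout and 3.81 in control (1.54, FDR 0.0929), while an intron peak 13358 bases inside the gene stood at 2.56 and 4.17 (-1.61, FDR 0.257) per the authors' deposited table. Among receptor promoters, the Lpar3 peak had the smallest FDR. Lpar1 had an intergenic peak at 1.84 (FDR 0.171), and Lpar4, a receptor gene active in developing vessels, one at -1.05 (FDR 0.288) per the authors' deposited table. The prostaglandin receptor genes Ptger4 (exon, 1.85, FDR 0.21) and Ptgfr (intron, -1.17, FDR 0.437) differed in sign per the authors' deposited table.

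Protease-activated receptors are switched on when thrombin or trypsin cuts their outer end. Their genes F2rl1, F2r and F2rl2 lie side by side on chromosome 13, and the 6 peaks named for them spanned 221 kb, from 95525311 to 95746780. The folds were positive at 5 of the 6, and 0 were called. F2rl1 gave 0.98 at its promoter (FDR 0.432), 1.56 (FDR 0.475) and 0.88 (FDR 0.485), in order along the chromosome, per the authors' deposited table. F2r, the thrombin receptor gene, gave 0.79 (FDR 0.436), and F2rl2 gave 0.69 (FDR 0.259) and then -1.62 (FDR 0.168) per the authors' deposited table. The last 3 peaks lay inside Iqgap2, a scaffold protein gene, so that the assignment to F2r and F2rl2 is by distance alone. The peak with the negative fold was the most distal, in intron 4 of 35 of the Iqgap2 transcript.

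Nucleoside and nucleotide receptor genes had 5 peaks at 4 genes, 4 positive and 1 negative, with Adora1 called. P2ry2, the receptor gene through which endothelium responds to ATP and UTP, had a pair of intergenic peaks at 5.86 in knockout and 5.11 in control (0.74, FDR 0.409) and at 6.09 and 5.39 (0.70, FDR 0.519) per the authors' deposited table. Adora2a encodes a stimulatory adenosine receptor. Its promoter peak stood at 4.19 and 5.57 (-1.38, FDR 0.167 per the authors' deposited table), so the adenosine receptor genes Adora1 and Adora2a had listed peaks of opposite sign, of which only the Adora1 peak was called. The P2ry13 peak (1.02, FDR 0.338 per the authors' deposited table) lay inside both P2ry12, a microglial receptor gene, and Med12l.

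Chemokine receptor genes had 5 peaks at 4 genes, 2 positive and 3 negative and 0 called. Cxcr4, the tip cell receptor gene for the chemokine CXCL12, had 2 negative folds. Its intron peak 623 bases from the TSS stood at 4.21 in knockout and 4.96 in control (-0.75, FDR 0.533), and a peak 207858 bases upstream at 1.56 and 3.03 (-1.47, FDR 0.415) per the authors' deposited table. The leukocyte receptor genes Cxcr6 (2.14, FDR 0.322), Cxcr5 (1.19, FDR 0.435) and Ccr7 (-0.79, FDR 0.437) made up the rest per the authors' deposited table, and the Cxcr6 peak lay inside Fyco1.

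The genes named Gpr had 20 peaks at 17 genes, 12 positive and 8 negative, with Gpr132 and Gpr142 called. Next by FDR came an intergenic peak of Gpr6, a receptor gene of the brain, at 3.91 in knockout and 1.46 in control (2.44, FDR 0.108 per the authors' deposited table). Gpr158, likewise a brain receptor gene, followed with 4.90 and 3.58 (1.32, FDR 0.153 per the authors' deposited table). At promoters, Gpr35 stood at 2.58 and 4.62 (-2.04, FDR 0.179) and Gpr85 at 4.35 and 2.88 (1.47, FDR 0.233) per the authors' deposited table. Gpr20 had an intergenic peak at 1.78 (FDR 0.204 per the authors' deposited table). Gpr12 had 1 peak of each sign, at 1.72 (FDR 0.393) and -1.50 (FDR 0.498) per the authors' deposited table.

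Gpr18 and Gpr183, receptor genes of lymphocytes and other immune cells, lie within the gene Ubac2 on chromosome 14. The 3 Gpr18 peaks gave -1.53 (FDR 0.441), -0.98 (FDR 0.391) and 1.47 (FDR 0.164), and the Gpr183 peak -0.94 (FDR 0.377), in order along the chromosome per the authors' deposited table. All 4 were in Ubac2 introns, and the next listed peak, named for Timm8a2 and also in Ubac2, stood at -2.27 (FDR 0.0663 per the authors' deposited table). Microglial markers are given beside these immune receptor genes. Of 6 marker genes 2 had a listed peak, Aif1 (-2.33, FDR 0.111) and Ptprc (-2.01, FDR 0.153) per the authors' deposited table. P2ry12, also a receptor gene of the pattern, had none under its own name. The P2ry13 peak that lies inside P2ry12 had a positive fold (1.02, FDR 0.338 per the authors' deposited table). The part of immune cells in these values was not tested. Of the receptor genes named Gprc, Gprc5a had an intergenic peak at 0.78 (FDR 0.303) and Gprc5b a promoter peak at -0.80 (FDR 0.533) per the authors' deposited table.

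**Figure D4:**
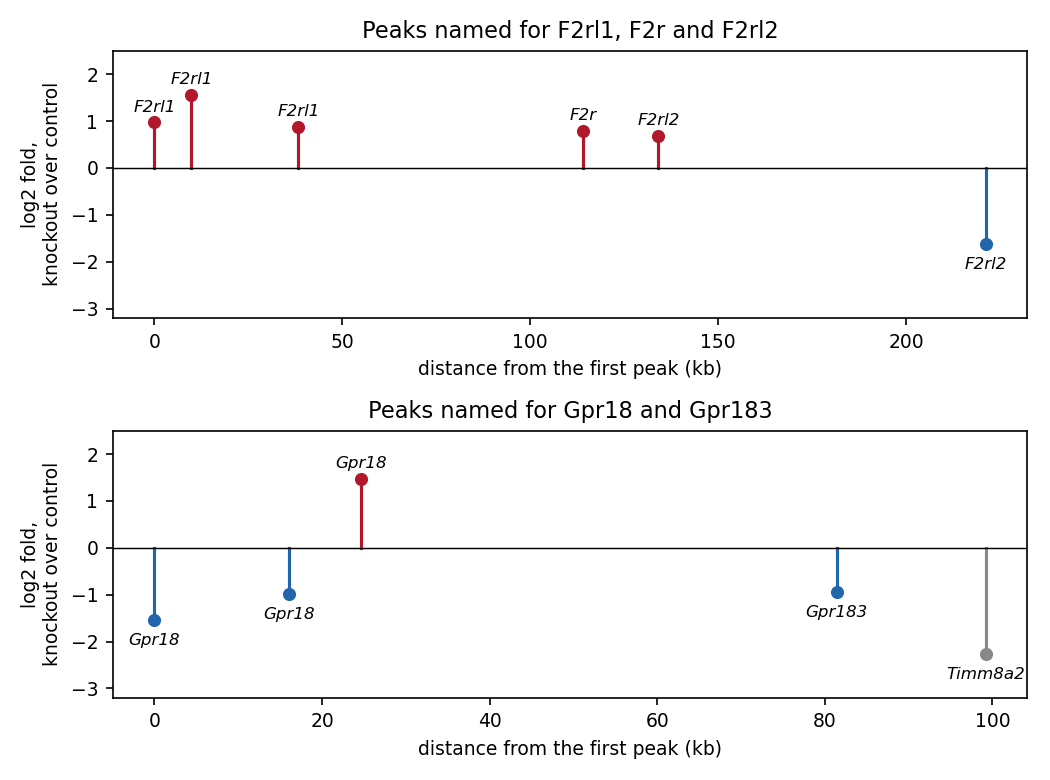
Log2 fold of each listed peak against its distance in kb from the first peak, along the F2rl1, F2r and F2rl2 region and along the Gpr18 and Gpr183 region, with a peak named for another gene in grey. In the upper panel 5 of 6 folds are positive, and in the lower panel 3 of the 4 receptor peaks are negative.

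Most receptor genes rested on a single peak. Of the 61 genes, 43 had 1 listed peak and 18 had at least 2. Among the 18, 3 had only positive folds (F2rl1, P2ry2 and Adgrg6), 6 only negative (Adgrf5, Adgrl4, Adra2a, Agtrap, Calcrl and Cxcr4) and 9 both. Peaks of a gene share a neighbourhood and are not replicates.

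Receptors studied in blood vessels showed no common direction. Of a list of 31 such genes, 18 had listed peaks, 14 of their 29 peaks with positive and 15 with negative folds. The peak of Gpr132 was called, 1 of the 29, beside 3.02% of all listed peaks. So few peaks cannot be read as a difference. By gene, 8 had only positive folds, 8 only negative and 2 both. The negative ones were Adgrf5, Adgrl4, Adora2a, Aplnr, Calcrl, Cxcr4, Gprc5b and Lpar4. The positive ones were Ednrb, F2r, F2rl1, Gpr132, Gprc5a, Lpar1, P2ry2 and Ptger4. No peak was listed under the name of the other 13, among them Ackr3, Adgra2, Ednra, Lpar6, P2ry1, Agtr1a and Gpr182. Endothelial marker genes had 11 listed peaks at 6 of 12 genes, 8 positive, 3 negative and 0 called (beside 3.02% of all listed peaks). A table of differing peaks gives no readout of whether the defining endothelial genes were open.

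**Figure D5:**
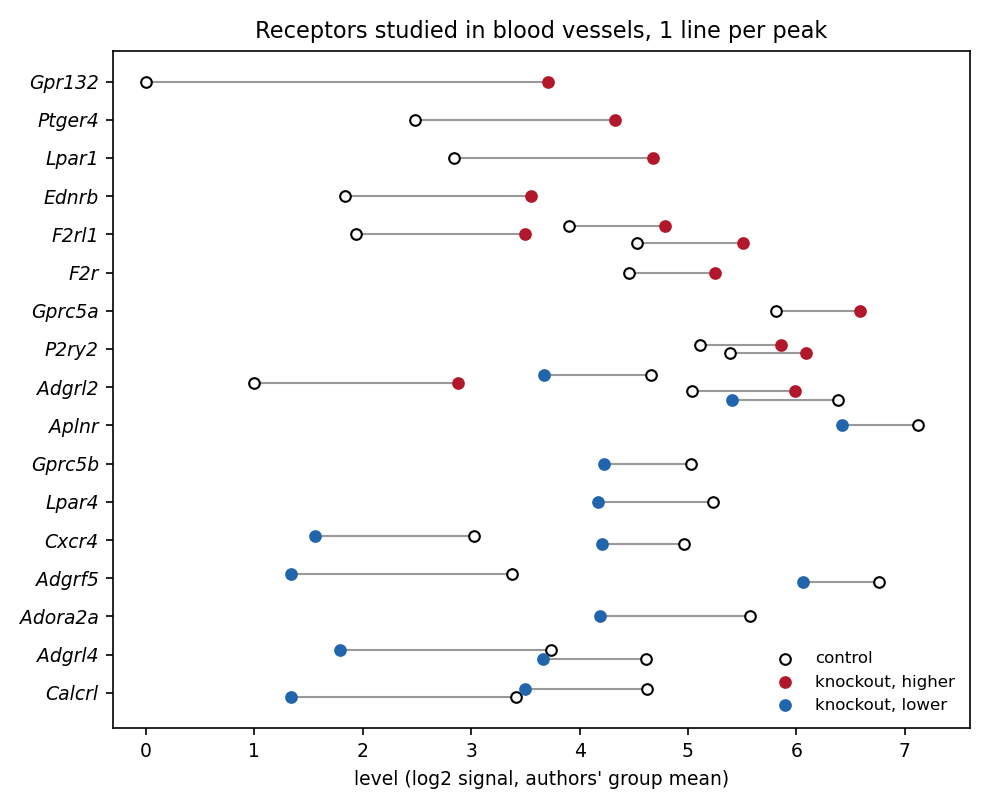
Control (open) and knockout (filled) level in log2 signal, the authors' group means, for 27 peaks at 17 receptor genes studied in blood vessels, with 1 line per peak. Genes are ordered by their mean fold, from Calcrl at the bottom to Gpr132 at the top.

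Among peaks of ligand genes the share of positive folds was larger than among those of receptor genes, 81.2% beside 51.8%, and this difference was not tested. Of 18 genes on the ligand list, which includes the enzyme gene Enpp2, 11 had 16 listed peaks. Of these peaks 13 were positive and 3 negative, beside 62.1% positive among all listed peaks. Most of the 16 were intergenic, a class in which 75.1% of all listed peaks and 68.3% of receptor peaks had positive folds. The 1 call (6.25% of the 16 peaks, beside 3.02% of all listed peaks) was at Adm2. This gene encodes a peptide of the adrenomedullin family that binds the Calcrl receptor. The Adm2 peak (chromosome 15, 89320770 to 89320966) lay at -1852 bases from the TSS, at 3.49 in knockout and a control level listed at 0 (p = 7.76e-05, FDR 0.039 per the authors' deposited table). Next came an intron peak of Enpp2, the enzyme gene that makes lysophosphatidic acid, at 4.33 and 2.23 (2.11, FDR 0.0626 per the authors' deposited table). Cxcl12, the ligand gene of Cxcr4, had a distal peak at 3.54 and 1.12 (2.42, FDR 0.134 per the authors' deposited table). Apela, which encodes a ligand of the apelin receptor, stood at 3.20 in knockout and was listed at 0 in control (FDR 0.135 per the authors' deposited table).

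Calcrl, Cxcr4 and Aplnr had negative folds at all of their 5 listed peaks, while Adm2, Cxcl12 and Apela each had 1 peak with a higher level in knockout. Of these 8 peaks only that of Adm2 passed the threshold. The pairs were picked after their values were seen, and 13 of the 16 ligand peaks had positive folds. The endothelin genes did not share that layout. Edn1 stood at 1.19 (FDR 0.496), Edn2 at -1.14 (FDR 0.332) and Edn3 at 4 peaks, 2 of each sign, per the authors' deposited table. The Edn2 peak lay inside Hivep3, at -98633 bases from the Edn2 TSS. Enpp2 (2.11) stood beside lysophosphatidic acid receptor genes of both signs, such as Lpar1 (1.84) and Lpar4 (-1.05), per the authors' deposited table. The somatostatin gene Sst (0.83, FDR 0.528) did share the layout with Sstr5 (-2.77) per the authors' deposited table. Pomc (1.18, FDR 0.407), with its peak inside Efr3b, stood beside melanocortin receptor genes of both signs. These were Mc1r (-1.01) and Mc4r (0.80), per the authors' deposited table. The 3 peaks of Ccl2, a chemokine gene, had positive folds from 1.04 to 1.38 per the authors' deposited table.

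The signalling machinery behind the receptors had 42 listed peaks in 5 gene lists, 28 positive and 14 negative (66.7% positive, beside 62.1% of all listed peaks). None of the 42 was called by the authors' FDR, beside 3.02% of all listed peaks, a share too low for so few peaks to be read as a difference. G protein subunit genes had 5 positive and 5 negative folds, led by Gnaz (-2.25, FDR 0.06) and Gnb4 (1.88, FDR 0.267) per the authors' deposited table. Gnaz also had an intergenic peak of the opposite sign, at 1.96 (FDR 0.392 per the authors' deposited table). RGS genes, whose products switch G proteins off, had 7 positive and 5 negative. The smallest FDR belonged to distal peaks of Rgs9 (0.13, the table's lowest knockout level, against 3.23 in control, FDR 0.0754) and Rgs3 (-2.36, FDR 0.0828) per the authors' deposited table. Rgs3 had 6 peaks in all, 4 positive and 2 negative, among them one at 1.98 (FDR 0.186) only 219 bases from the TSS per the authors' deposited table. Adenylyl cyclase genes had 3 positive folds in introns, from 1.03 at Adcy7 to 2.17 at Adcy5 (FDR 0.187 per the authors' deposited table). Cyclic AMP phosphodiesterase genes had 6 positive and 2 negative, led by Pde4d (0.85, FDR 0.263) and Pde3a (1.34, FDR 0.295) per the authors' deposited table. Cyclic AMP effector genes had 7 positive and 2 negative. Both negative folds had the smallest FDR, at Prkar1b (-1.94, FDR 0.211) and at Rapgef3, the gene of an exchange factor that tightens endothelial junctions (-1.11, FDR 0.222), per the authors' deposited table. Of the positive folds, 2 were also at Prkar1b, the first at 2.22 (FDR 0.245), 2 at Prkar2b, from 1.27 to 1.44, and 3 at Rapgef4, from 1.39 to 1.72, per the authors' deposited table. No peak was listed for receptor kinases and arrestins, RAMP genes or phospholipase C beta genes. Receptor genes outside the symbol pattern, such as Grm4 (2.30, FDR 0.163) and Fzd9 (-1.24, FDR 0.22) per the authors' deposited table, had 12 positive and 10 negative folds and 0 called.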

How the data were processed

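The data were 2 copies of 1 table of peaks that differ between knockout and control. Per the submitters' processing notes the build is mm10 and the tools were edgeR, DiffBind, MACS2, ChIPseeker, Bowtie2, Trimmomatic 0.36, Picard 1.119, SAMtools and deepTools, with no role named. The sources used here do not state the scaling, the filters or any shift of reads. Levels and folds were deposited by the authors as log2 values, and the log2 fold equalled knockout minus control within 0.01 in all 6891 rows. The authors also deposited a p-value and an FDR per peak, and the distance to the TSS. The copies held equal numbers and differed in 4 gene names, 0 of them receptor genes; names came from the workbook. The labels differ on input, giving around 2000 cells in one place and at most 50000 in another.

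Members were found by symbol and placed against RefSeq genes (GRCm38.p6) by peak midpoint; all 61 symbols matched. Counts, shares and medians were computed with pandas 2.3.3 and SciPy 1.17.1. The symbol pattern and the count of positive folds were checked on simulated data with planted names. Shares, medians and positions were not checked in that way. No test was added, since no library values were used. Receptor groups, the vascular, ligand, signalling and cell type lists, and the rule for named genes (called peaks; 10 genes of smallest FDR per direction; the gene of smallest FDR per receptor group; up to 2 genes of smallest FDR per signalling or ligand list; at least 3 peaks; peaks at promoters or in both directions; vascular receptors) were written with earlier results of these data known. Peaks near called ones, Ccl2 and the other peaks of Gnaz, Rgs3, Prkar1b, Prkar2b and Rapgef4 were picked after their values were seen. So were Edn1 to Edn3, the families' other genes and the receptor-ligand pairs. Of 54 marker genes, 0 had a called peak, beside 3.02% of all listed peaks called. Higher and lower counts were 8 and 3 for endothelial, 1 and 1 for pericyte and 0 and 2 for microglia genes. They were 1 and 0 for photoreceptor, 3 and 1 for Müller glia and 0 and 1 for amacrine genes. They were 2 and 2 for bipolar and 2 and 0 for ganglion genes, with 0 peaks for astrocytes. Values of 2 receptor genes are not reported here by gene, though the counts include their peaks.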

Additional observations from a re-analysis of the deposited data

How the results depend on the processing

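The count of 5 called receptor peaks fell to 0 at FDR < 0.01, where the smallest receptor FDR is 0.0214 in the authors' deposited table. It was 8 at FDR < 0.1 and 1 among peaks whose mean signal reached the median of all listed peaks, 3.74. In the other 7 settings the count was 4 or 5. The share of positive folds (51.8%) was 35.0% among peaks at FDR < 0.2 and between 50.6% and 59.0% in the other 8 settings. The median log2 fold of 0.69 ranged from 0.60 to 0.95 in 4 settings. Outside those settings it was -1.62 among receptor peaks at FDR < 0.2 and 0.17 among those with mean signal under the median. Its binomial interval ran from -0.95 to 0.95, so the sign of the median is not settled. Assignment by position, to the RefSeq gene that holds the peak or else has the nearest boundary (that table gives no strand, so not the nearest TSS as planned), kept 72 of the 83 peaks and added 12, with 0 called among those added. No paired analysis was possible because the deposited table holds 1 mean per group and no library values; leaving out a library was not possible for the same reason. The sources used here do not state the depth of each library, so what depth limits cannot be given.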
